A study of Mus musculus with 2 samples.

Results

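Dendritic cells of the mouse uterus were taken as the barcodes of both libraries that passed a transcript gate, and 307 of 7076 cells did so. The gate asked for at least 20 unique molecular identifiers (UMIs, each counting 1 captured transcript) of the MHC class II genes H2-Aa, H2-Ab1 and Cd74. It asked for at least 1 UMI of Flt3, Cd209a, Zbtb46, Xcr1, Clec9a or Ccr7, for at most 2 UMIs of the macrophage genes C1qa, C1qb and C1qc, and for none of Cd79a, Ms4a1, Cd3e, Pdgfra and Epcam. Barcodes counted as cells from 1000 UMIs and 500 genes upwards, if mitochondrial genes took no more than 20% of the UMIs. Whole uteri of C57BL/6J females aged 6 months were digested with collagenase for 5 hours and profiled by droplet single-cell RNA sequencing from the 3-prime end of transcripts. The group labelled Prickle1 f/f (control) and the group labelled Prickle1 f/f MiC (cKO) each gave 1 library, made from a pool of 3 mice. Both groups carry the Prickle1 f/f allele, the genotype field reads wild-type for both, and what MiC stands for, and in which cells it acts, is not given in the sources used here. Prickle1 encodes a core protein of planar cell polarity, and by the series title it is the myometrium that loses it. Mice were pooled and each group is 1 library, so no difference below has a replicate check and none was tested. Intervals are 95% and cover counting error only.

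Dendritic cells take up antigen in tissues, and after maturation they carry it along gradients sensed by the chemokine receptor Ccr7 to lymph nodes, where they present it to T cells on MHC molecules. Conventional type 1 cells, marked by Xcr1 and Clec9a, are known for presenting antigen on MHC class I, and conventional type 2 cells, marked by Cd209a in mice, for presenting it on MHC class II. Type I interferons bind a receptor of Ifnar1 and Ifnar2, whose kinases include Jak1 and Tyk2, and the transcription factors they activate, among them Stat2 and Irf9, switch on antiviral genes, several of which dendritic cells also use in activating T cells and natural killer (NK) cells.

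The library labelled control held 128 of these cells, 3.67% of its 3490 cells (3.07 to 4.35, exact binomial). The library labelled cKO held 179, 4.99% of its 3586 cells (4.30 to 5.76). Outside the cells gated as epithelium, which numbered 912 in the library labelled control, against 76 in that labelled cKO, the shares were 4.97% (4.16 to 5.88) and 5.10% (4.40 to 5.88). Without the epithelium in the denominator, then, the shares lay close together and their intervals overlapped. Cells labelled control had a median depth of 10027 UMIs and those labelled cKO 8304, and the cells summed to 1410153 and 1936975 UMIs. The whole libraries held 45035801 and 34261441 UMIs over all barcodes. The cells of the 2 libraries shared 6 barcodes, none of them a dendritic cell. Just inside the MHC class II limit lay 3 cells of each library with 20 to 29 UMIs, and just outside it 4 and 7 cells with 10 to 19 UMIs. A single UMI of the 6 dendritic cell genes admitted 7 cells in each library, and 27 and 23 cells were left out for having none.

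With 1 and 3 UMIs, Prickle1 could not check the labels in these cells. It gave 1 UMI in the library labelled control (0.709 CPM, the count scaled to a summed total of 1e6 UMIs, with an exact Poisson interval of 0.0180 to 3.95) and 3 UMIs in the library labelled cKO (1.55 CPM, 0.319 to 4.53). In fibroblast-gated cells it gave 32 UMIs (4.17 CPM) in the library labelled control, against 115 UMIs (8.56 CPM) in that labelled cKO. In none of the 5 gates used here was its CPM in the library labelled cKO below that in the library labelled control. The series title names the myometrium, and smooth muscle was not gated, so these gates may not be where a loss would show. Whether the reads at its 3-prime end lie in the deleted part is not given in the sources used here, so this check may show nothing. Every direction below is that of the library labelled cKO relative to the other, and paired values give the library labelled control first.

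Most of these cells carried the transcripts of mature, migratory dendritic cells. Ccr7, which the gate used, had a UMI in 121 of 128 cells of the library labelled control, against 170 of 179 of that labelled cKO. Zbtb46, a transcription factor of conventional dendritic cells, had one in 55.5% and 62.6%, and Flt3, the receptor for their growth factor, in 33.6% and 46.9%. These 3 genes were chosen by the gate and are given as a description. Outside the gate, the chemokine Ccl22 had a UMI in 73.4% and 77.7% of cells, against 1.70% and 1.64% of macrophage-gated cells of 9675.5 and 7150.5 median UMIs. The enzyme Il4i1 was detected in 74.2% and 79.9% of dendritic cells, against 1.70% and 5.74% of macrophage-gated cells. Fscn1, the actin-bundling fascin of mature dendritic cells, was detected in 27.3% and 25.1%.

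**Figure D1:**
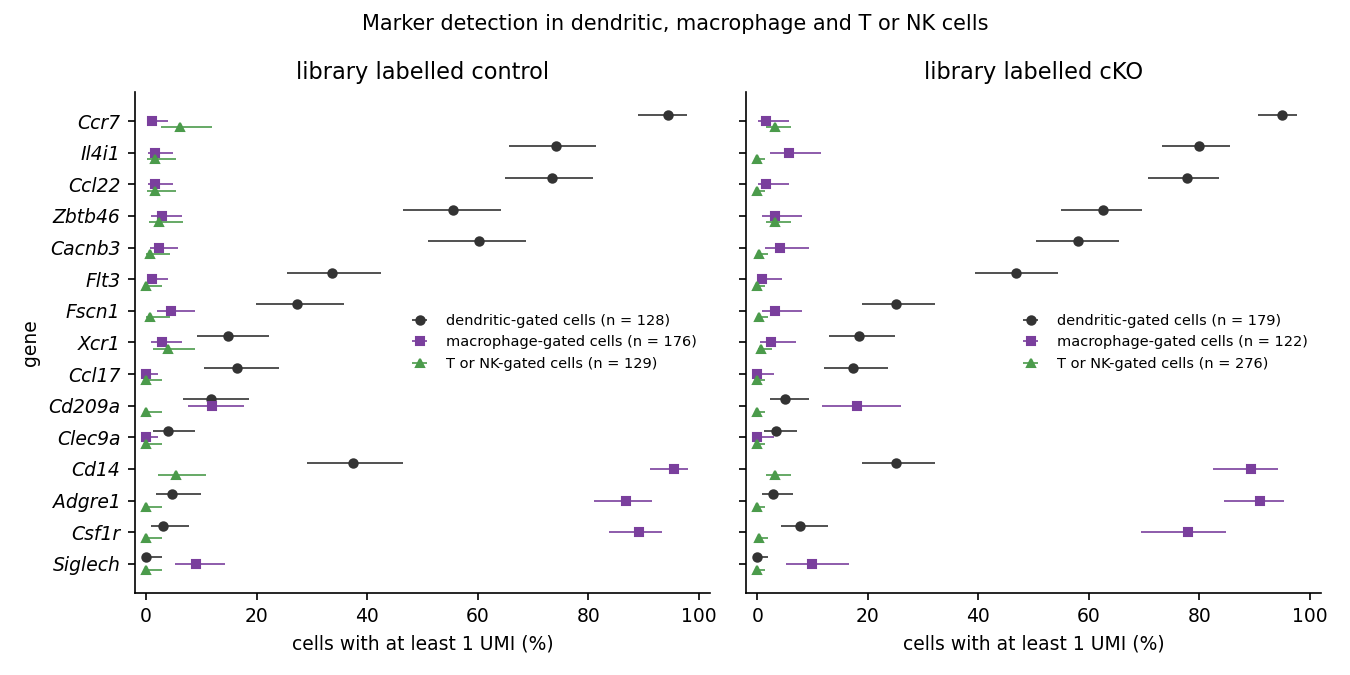
Percentage of cells with at least 1 UMI of each gene in dendritic-, macrophage- and T or NK-gated cells, with exact 95% binomial intervals of counting error, in the library labelled control (left) and that labelled cKO (right). Ccr7, Il4i1 and Ccl22 lie above 70% in dendritic cells and below 7% in the other gates, while Adgre1, Csf1r and Siglech lie below 8% in dendritic cells. Ccr7, Zbtb46, Flt3, Xcr1, Cd209a and Clec9a were used by the dendritic gate.

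Markers of the 2 conventional types were sparse. Xcr1 had a UMI in 14.8% of cells of the library labelled control, against 18.4% of that labelled cKO, and Clec9a, a receptor for dead cells, in 3.91% and 3.35%. Cd209a had one in 11.7% and 5.03%, no more than the 11.9% and 18.0% of macrophage-gated cells, so Cd209a does not set these cells apart. The integrin gene Itgax, often used to define dendritic cells, had a UMI in 11.7% and 7.26%. Siglech, which marks plasmacytoid dendritic cells, was at 0 in both libraries, which allows up to 2.13 CPM and 1.55 CPM. Of macrophage genes, Adgre1 was detected in 4.69% and 2.79% of dendritic cells against 86.9% and 91.0% of macrophage-gated cells. The 13 genes of the macrophage list summed to 192 CPM and 185 CPM, with Trem2 at 0 in both and Folr2 in the library labelled control. Outside the gate, then, the label rests on genes of the mature state such as Ccl22 and Il4i1.

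Clustering split the cells into 9 clusters. It left out the antiviral, interferon GTPase, interferon transcription factor and MHC class I lists, with Cxcl9, Cxcl10 and Ccl5. Genes outside these lists that vary with Rsad2, such as Rnf213, were not excluded, so the clusters may still reflect the interferon response. The 77 cells of the largest cluster (28 labelled control, 49 labelled cKO) carried Fscn1, Ccl22, Ccl17, Cacnb3, Il4i1 and Socs2 and were mature dendritic cell-like. Fabp5, a fatty acid binding protein, led this cluster at 1678 CPM against 353 CPM in the other cells. The 26 cells led by Apol7c, Naaa and Gatm, 9 and 17 by library, also carried Xcr1, Irf8 and Wdfy4 and were conventional dendritic cell 1-like. That name rests on part of them, since Xcr1 had a UMI in 38.5%, and Irf8 and Wdfy4 in 34.6% each. Ccr7 had one in 100% of them and the cycling gene Mki67 in 38.5%. A further 21 cells, 9 and 12 by library, were led by Xcr1 at 676 CPM (in 95.2% of them), Treml4 and Cat, but held too few fixed markers to be named. Ccr7 was at 1625 CPM in them against 3484 CPM in the other cells. A cluster of 54 cells, 21 and 33 by library, was led by the receptor Clec4e, the prostaglandin synthase Ptgs2 and Thbs1, with Cd14 at 816 CPM and Ccl22 at 506 CPM, and stayed unnamed. Another 10 cells, 3 and 7 by library, were led by Adgrg6, Glipr2 and Il12b, the shared subunit of interleukins 12 and 23, at 388 CPM. A cluster of 64 cells, 23 and 41 by library, was led by Tmem267, Tent5c and H2-Eb2. Another 37 cells, 33 and 4 by library, were led by interferon response genes, and 12 of the 37 were mixed cells in the sense given below. The last 2 clusters, of 9 cells each, were led by Ccl21a, Tm4sf1 and Prox1, genes of lymphatic endothelium, and by Il2rb and AW112010, with T cell receptor genes. The genes that define a cluster are no result, and cluster sizes are not compared.

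Some barcodes that passed the gate carried transcripts of another cell type as well. By limits on marker UMIs that were set after the data were examined, such mixed cells numbered 15 (labelled control) and 30 (labelled cKO), holding 20.2% and 35.2% of all UMIs. Endothelial genes (Prox1, Cdh5, Lyve1, Ccl21a, Emcn) marked 2 and 10 of them with 7.31% and 22.8% of the UMIs, and T or NK genes marked 2 and 10. No doublet caller was run. The part of these cells in each result was measured by leaving them out, with 113 and 149 cells left.

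Levels were compared as log2((cKO CPM + 5)/(control CPM + 5)) of summed UMIs for 5896 genes with at least 20 CPM in either library, a scale that understates the change of low genes. At least 2-fold lower in the library labelled cKO were 208 genes (3.53%), and at least 2-fold higher 429 genes (7.28%). The median of all genes tested was 0.23. With median-of-ratios scaling, which moved that median by 0.25 to -0.02, the counts were 279 lower and 252 higher. Without the mixed cells 369 of 5427 genes passed 2-fold (6.80%), of which 217 were lower (4.0%) and 152 higher (2.80%), with a median of 0.17. Of the lower genes 181 were in both counts, and of the higher genes 76. The highest ratios over all members came from mixed cells. Hba-a1, a haemoglobin chain, had 1 UMI in the library labelled control, against 556 in that labelled cKO, 551 of them in 1 cell. Lyve1, a hyaluronan receptor of lymphatic endothelium, had 3 and 391 UMIs, and every one of the 391 was in a mixed cell. Counts below are over all members unless said otherwise, and counts of higher genes are also given without the mixed cells. Each count of dendritic cell genes is to be read beside 3.53% lower and 7.28% higher, or 4.0% and 2.80% without the mixed cells.

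**Figure D2:**
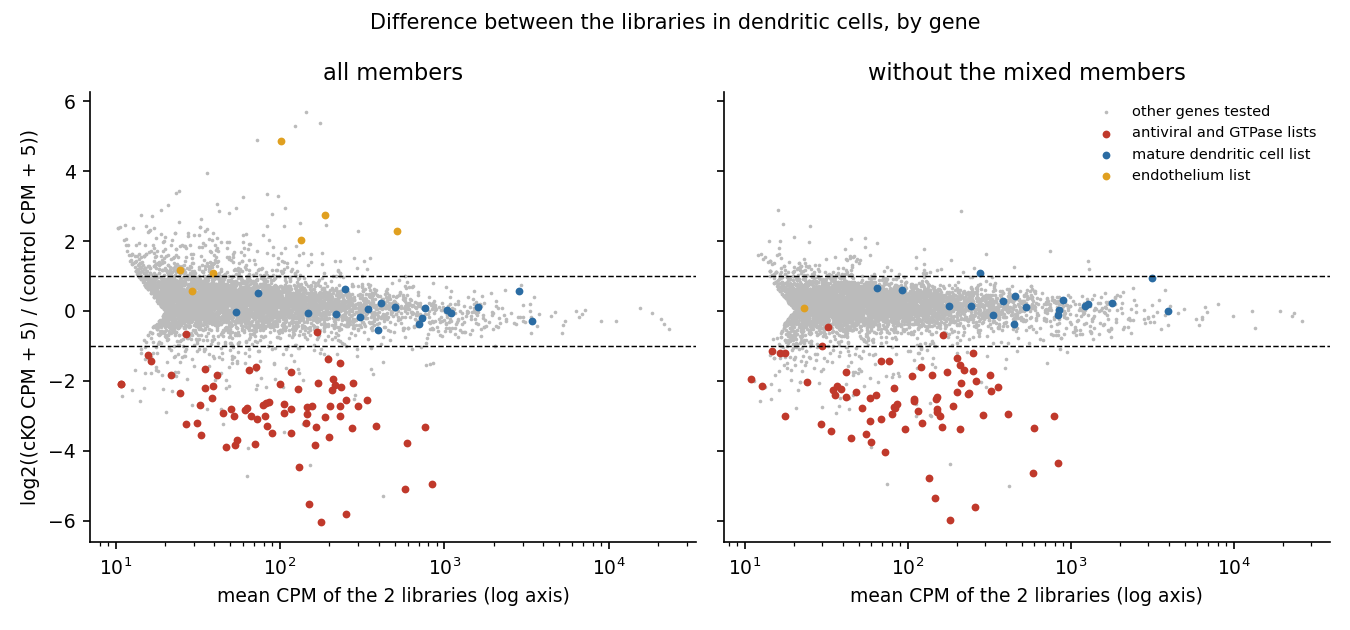
Log2 ratio between the libraries (y axis) against mean level on a log axis (x axis) in dendritic cells, for the genes tested over all members (left) and for those of them still at 20 CPM without the mixed cells (right). Dashed lines mark 2-fold, and colours mark the antiviral and GTPase lists, which lie almost wholly below the lower line in both panels, the mature dendritic cell list, near 0, and the endothelium list, high in the left panel only.

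Genes of the antiviral interferon response were far lower in the library labelled cKO. Of 62 antiviral genes tested, 60 were at least 2-fold lower and none higher, beside 3.53% of all genes tested. Their median log2 ratio was -2.73, and -2.43 without the mixed cells. All 66 genes of the list in the files summed to 25659 UMIs (18196 CPM) in the library labelled control, against 4309 UMIs (2225 CPM) in that labelled cKO. The 2 that missed the limit were Cd69, an activation marker, at -0.67 and Shisa5 at -0.60. Within the 3 clusters that held at least 10 cells of both libraries, which leaves out the cluster led by interferon genes, the median of the mean log2 ratios was -1.34. By that measure Ifit2 was at -2.57, Ifit1 at -2.76, Rsad2 at -3.49, Isg15 at -1.76 and Gbp2 at -1.45.

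The lowest ratios belonged to the Ifit genes, whose proteins bind viral RNA. Ifit2 had 711 UMIs (504 CPM) in the library labelled control, against 8 (4.13 CPM) in that labelled cKO, a log2 ratio of -5.80. Ifit3 had 420 and 3 UMIs, and Ifit1 had 1595 and 54. Ifit1bl1 had 504 UMIs and 1 UMI, a log2 ratio of the counts between -14.74 and -6.95 by its counting interval. Ifit3 and Ifit3b, and Ifit1 and Ifit1bl1, are close copies, so their split between genes is uncertain. Of these genes Ifit1 alone kept more than 8 UMIs in the library labelled cKO, in 14 of 179 cells.

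Rsad2 encodes viperin, an enzyme that blocks viral replication. Its 2303 UMIs in the library labelled control came from 62 of 128 cells, with at most 306 in 1 cell. Its 94 UMIs in the library labelled cKO came from 10 of 179 cells, and 82 of them were in a single cell. Rsad2 thus stood at 1633 CPM and 48.5 CPM, a log2 ratio of -4.94. After every cell was thinned to 1000 UMIs, it was detected in 33.6% and 0.559% of cells. Cmpk2, a nucleotide kinase gene beside Rsad2, had 357 and 13 UMIs. Isg15, a ubiquitin-like modifier, stayed detectable in more cells than Rsad2, with 1962 UMIs (1391 CPM) in the library labelled control, against 263 (136 CPM) in that labelled cKO. Isg15 had a UMI in 72.7% and 38.5% of cells, and in 47.7% and 10.6% after thinning.

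The interferon-induced GTPases, which attack the vacuoles of intracellular microbes, were all lower: 13 of 13 tested passed 2-fold, with a median of -2.95 (-1.21 as the mean within the same 3 clusters). Gbp2 had 990 UMIs (702 CPM) labelled control and 131 (67.6 CPM) labelled cKO. Ifi47 had 525 and 50 UMIs, and Gbp7 had 188 and 22. Iigp1 had 74 and 2 UMIs, in 8.59% and 1.12% of cells. These ratios were between -3.61 for Ifi47 and -1.65 for Gbp4, and the family members are similar in sequence, so counts may be split between them.

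The promoters of these genes are shown because the genes moved together. The windows are from RefSeq on GRCm38.p6, the build that the submitters' notes name as mm10, with 80 bases of each promoter 5′ to 3′ on the gene's own strand. Capitals mark the letters GAAA, any 2 bases and GAAA again, on either strand, the core of the interferon-stimulated response element. Where capitals run on, matches overlap.
Rsad2: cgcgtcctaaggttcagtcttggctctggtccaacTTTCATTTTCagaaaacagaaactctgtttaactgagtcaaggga
Ifit1: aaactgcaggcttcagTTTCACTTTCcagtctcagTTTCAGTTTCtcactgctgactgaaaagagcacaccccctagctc
Isg15: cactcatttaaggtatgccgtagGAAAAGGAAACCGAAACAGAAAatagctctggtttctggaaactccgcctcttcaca
Cxcl10: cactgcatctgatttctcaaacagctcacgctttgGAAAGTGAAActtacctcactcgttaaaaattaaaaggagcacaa
Gbp2: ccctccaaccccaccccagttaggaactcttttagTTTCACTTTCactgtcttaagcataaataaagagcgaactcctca
These lie at chr12:26456528-26456607 (minus strand) for Rsad2, chr19:34640769-34640848 (plus) for Ifit1, chr4:156200840-156200919 (minus) for Isg15, chr5:92349058-92349137 (minus) for Cxcl10 and chr3:142620569-142620648 (plus) for Gbp2, all upstream of the annotated start. In the 250 bases before the start, this pair of GAAA runs was found in 23 of 51 antiviral genes with a promoter in the table (45.1%) and in 8 of 9 GTPase genes. It was found in 45 of 162 lower genes (27.8%), 7 of 328 higher genes (2.13%), 131 of 4254 genes that did not pass 2-fold (3.08%) and 936 of 27025 genes in all (3.46%). The lower genes include 60 antiviral genes and the 13 GTPase genes, so the 27.8% in part counts those lists again. The type of site TTCNNNGAA, searched likewise on both strands, was in 6 of 51 antiviral genes (11.8%), 5 of 9 GTPase genes and 8.13% of all genes. A match is a run of letters and was not shown to be a bound site.

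Of the genes that receive the interferon signal, none of 8 receptor and kinase genes tested passed 2-fold, beside 10.8% of all genes, and their median was -0.03. A count of 0 of 8 is near that share. Ifnar1, a chain of the type I receptor, had 134 UMIs in the library labelled control, against 160 in that labelled cKO, a log2 ratio of -0.19. The kinase gene Jak1 had 416 and 781 UMIs (0.44), and Tyk2 had 43 and 46 (-0.30). Among transcription factors 3 of 8 were lower. Irf7, itself an interferon-induced gene, had 279 UMIs (198 CPM) and 26 (13.4 CPM), a log2 ratio of -3.46 that was -0.88 as the mean within the 3 clusters. Stat2 had 247 and 67 UMIs (-2.19), while Irf5 had 434 and 561 (-0.09). Of 7 inhibitors of the pathway, Usp18 (375 and 47 UMIs, -3.21) and Socs1 (105 and 53, -1.30), which interferon itself induces, were lower. Within the 3 clusters Socs1 was at -0.65.

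No interferon gene was detected in the dendritic cells of either library, and 19 were looked for. Over all cells Ifnb1, named after its values were seen, gave 1083 UMIs in 96 cells of the library labelled control, against 2 UMIs in 1 cell of that labelled cKO. Of the 1083 UMIs, 873 were in 77 epithelium-gated cells. The library labelled cKO held fewer epithelial cells, 76 against 912, and no Ifnb1 UMI in them. Ifng, the type II interferon, gave 27 UMIs and 43 UMIs over all cells. Other interferon genes also had fewer UMIs over all cells, Ifne with 110 and 4, Ifnl3 with 66 and 2 and Ifnl2 with 32 and 0. In the library labelled control 99, 53 and 24 of these UMIs were in epithelium-gated cells, and in that labelled cKO 3, 0 and 0. Epithelium-gated cells summed to 17017768 and 1067167 UMIs, and these counts are not scaled to that, so they do not show lower levels per epithelial cell. The remaining interferon genes gave at most 6 UMIs in either library. The part of these ligands in the dendritic cell values was not tested.

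Within the library labelled control the response was uneven between dendritic cells. The share of a cell's UMIs on the antiviral list ran from 0.0229% to 8.94%, with a median of 0.454% and quartiles of 0.180% and 3.70%. It was below 0.25% in 51 cells and at least 3% in 42 cells, with only 5 cells between 1.5% and 3%. In the library labelled cKO the median was 0.146%, the quartiles 0.0749% and 0.260% and the highest cell 4.23%. At a limit of 1.5%, set after the data were examined, 47 of 128 cells (36.7%, 28.4 to 45.7) and 4 of 179 cells (2.23%, 0.612 to 5.62) lay above. Near that limit, between 1% and 2%, lay 7 and 4 cells. Thinned to 1000 UMIs, 39.8% and 1.68% of cells lay above it. Droplets of 10 to 100 UMIs, which hold free RNA, carried 0.357% and 0.0960% of their UMIs on the list. The share of free RNA in dendritic cells was at most 5.94% and 8.65%, by fibroblast and epithelium genes, and would supply 0.0212% and 0.00831% against the 1.82% and 0.222% measured over the summed cells. The mixed cells above the limit numbered 8 in the library labelled control, against 0 in that labelled cKO, and without mixed cells 34.5% and 2.68% lay above.

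**Figure D3:**
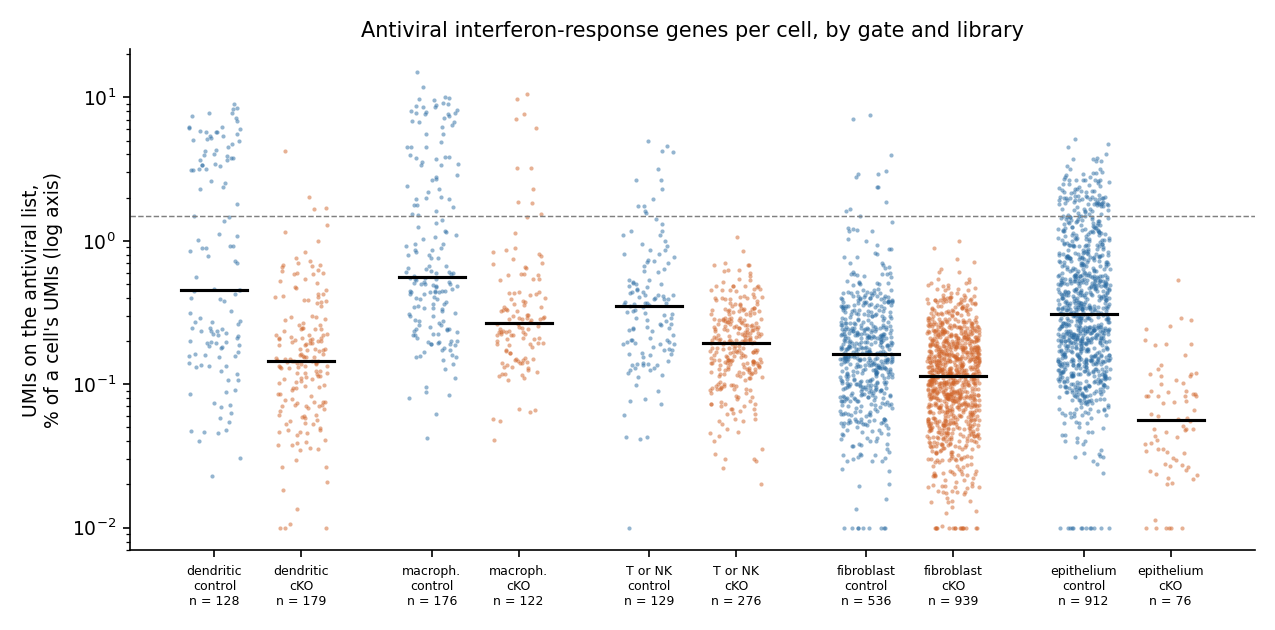
Percentage of each cell's UMIs on the antiviral list (log axis, cells below 0.01% drawn at 0.01%) in 5 gates and both libraries, with 1 point a cell, a black bar at the median and a dashed line at 1.5%. Dendritic cells of the library labelled control reach 8.94% around a median of 0.454%, and those of the library labelled cKO have a median of 0.146%.

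The median share was higher in the library labelled control in each of the 6 clusters that were neither led by interferon genes nor made of mixed cells. In mature dendritic cell-like cells the median share was 0.503% in the library labelled control, against 0.210% in that labelled cKO. In the conventional dendritic cell 1-like cluster it was 0.916% and 0.190%, in the Xcr1-led cluster 0.220% and 0.126%, and in the Clec4e-led cluster 0.107% and 0.0668%. It was 0.193% and 0.145% in the Tmem267-led cluster and 0.378% and 0.134% in the 10 Adgrg6-led cells. In the cluster led by interferon genes it was 5.54% in 33 cells labelled control and 0.107% in 4 labelled cKO. Among control cells the median was 0.866% in the 94 with a Ccl22 UMI and 0.204% in the 34 without, and 0.234% in the 21 with an Xcr1 or Clec9a UMI and 0.788% in the 107 without. Over the 128 control cells the 6 genes most like Rsad2 in rank were Ifit1 (Spearman rho 0.89), Ifit2 (0.88), Ifi47 (0.87), Slfn5 (0.86), Ifit3 (0.84) and Rnf213 (0.83). The median rho of the 5414 genes with a UMI in at least 13 cells was -0.05. These correlations describe cells of 1 library that share its depth range.

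Other cells of the same libraries showed the difference too. The antiviral list had a median log2 ratio of -1.28 in macrophage-gated cells (44 of 62 genes lower, beside 2.68% of all genes), -1.58 in T or NK-gated cells (41 of 52, beside 2.91%), -1.28 in fibroblast-gated cells (18 of 29, beside 0.917%) and -2.05 in epithelium-gated cells (45 of 51, beside 7.49%). Dendritic cells had the median furthest from 0 of the 5 gates, over sets of 29 to 62 tested genes, a difference that was not tested. As the mean within the 3 clusters the dendritic median was -1.34, a measure not made in the other gates, so the ranking depends on the measure. Rsad2 reached 5367 CPM in macrophage-gated cells labelled control and 1235 CPM in those labelled cKO, so that it stayed higher there than in dendritic cells in both. Above 1.5% lay 58 of 176 macrophage-gated cells labelled control and 11 of 122 labelled cKO.

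Of 14 chemokines tested 3 were lower and 3 higher, beside 3.53% and 7.28% of all genes, with a median of 0.28. With the mixed cells left out 3 of 13 were lower and 4 higher, with a median of 0.60. Cxcl10, which draws T and NK cells through the receptor Cxcr3, had 1168 UMIs (828 CPM) in 47 cells of the library labelled control, against 31 in 7 cells of that labelled cKO. Cxcl9, a ligand of the same receptor, had 179 UMIs in 15 cells and none in the library labelled cKO. That is 82.0-fold lower when a floor of 3 counts stands in for none, which leaves out the counting error of the 179. Of the 179, 76 were in 1 cell. Ccl5, a chemokine that attracts T cells, had 1709 UMIs (1212 CPM) and 816 (421 CPM), a log2 ratio of -1.51. Ccl22, which attracts regulatory T cells through Ccr4, had 3227 UMIs (2288 CPM) and 6572 (3393 CPM), a log2 ratio of 0.57. Ccl17, another Ccr4 ligand, had 85 and 169 UMIs (0.50). The higher Cxcl1 (117 and 534 UMIs) had 217 of its UMIs in 1 cell and was at 0.02 among cells with at least 2 UMIs of the dendritic cell genes.

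Il15, a cytokine that keeps NK cells and memory T cells alive, had 171 UMIs (121 CPM) in 50 cells of the library labelled control, against 42 (21.7 CPM) in 24 cells of that labelled cKO, a log2 ratio of -2.24 (-1.0 within the 3 clusters). Il1b had 3820 and 2608 UMIs, a log2 ratio of -1.01 over all members and -0.63 without the mixed cells. Among 13 cytokines tested 2 were lower and 2 higher, beside 3.53% and 7.28% of all genes. Without the mixed cells 1 of 12 was lower and 2 higher, beside 4.0% and 2.80%. Counts this small rest on 1 or 2 genes. The higher genes over all members were Tnf (9 and 56 UMIs) and Csf1 (11 and 51 UMIs). Each was detected in 12 cells of the library labelled cKO. Of the 56 Tnf UMIs 26 were in 1 cell, and Tnf was at 0.89 with a pseudocount of 20 CPM. Without the mixed cells Csf1 was at 0.60. After thinning its ratio turned to -2.04, but this rests on 1 cell labelled control and 0 labelled cKO with a UMI.

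Antigen processing for MHC class I was lower in part. Of 22 genes 7 were at least 2-fold lower, beside 3.53% of all genes, and none higher, with a median of -0.59. Without the mixed cells 3 were lower, with a median of -0.41, and Tap1 was at -0.75, while as the mean within the 3 clusters the median was -0.07. H2-T22, a nonclassical class I gene, had 195 UMIs (138 CPM) in the library labelled control, against 89 (45.9 CPM) in that labelled cKO, a log2 ratio of -1.49. The immunoproteasome subunit gene Psmb9 had 254 and 124 UMIs (-1.42), Psmb10 had 160 and 76 (-1.42), and the peptide transporter gene Tap1 had 314 and 194 (-1.11). Within the 3 clusters all of these lay within 2-fold, H2-T22 at -0.06, Psmb9 at -0.87, Psmb10 at -0.49 and Tap1 at -0.59, and after thinning Psmb10 was at -0.06. The heavy chain gene H2-K1 had 2173 UMIs (1541 CPM) and 2952 (1524 CPM), a log2 ratio of -0.02, and the light chain gene B2m had 4199 and 4529 (-0.35). The chaperone genes Canx (439 and 863 UMIs, 0.51), Calr (329 and 555, 0.29) and Pdia3 (202 and 352, 0.33) lay on the other side of 0. Class I copies are close in sequence, so their split is uncertain.

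Several of these genes were higher in cells of high antiviral share. In the 47 control cells at or above 1.5%, Tap1 stood at 434 CPM, and in the 81 below it at 109 CPM, close to the 90.8 CPM of the 175 cKO cells below it. Psmb9 stood at 373 CPM, 76.3 CPM and 61.4 CPM in the same order. Ccl5 stood at 2951 CPM, 278 CPM and 375 CPM, and Il15 at 284 CPM, 33.8 CPM and 18.9 CPM. Ccl22 was instead about as high in cKO cells below the limit as in control cells above it, at 3486 CPM, 1645 CPM and 3360 CPM. The limit is a point on a range and not a cell type, and the 3 sets of cells had median depths of 8661 UMIs, 10441 UMIs and 8304 UMIs.

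**Figure D4:**
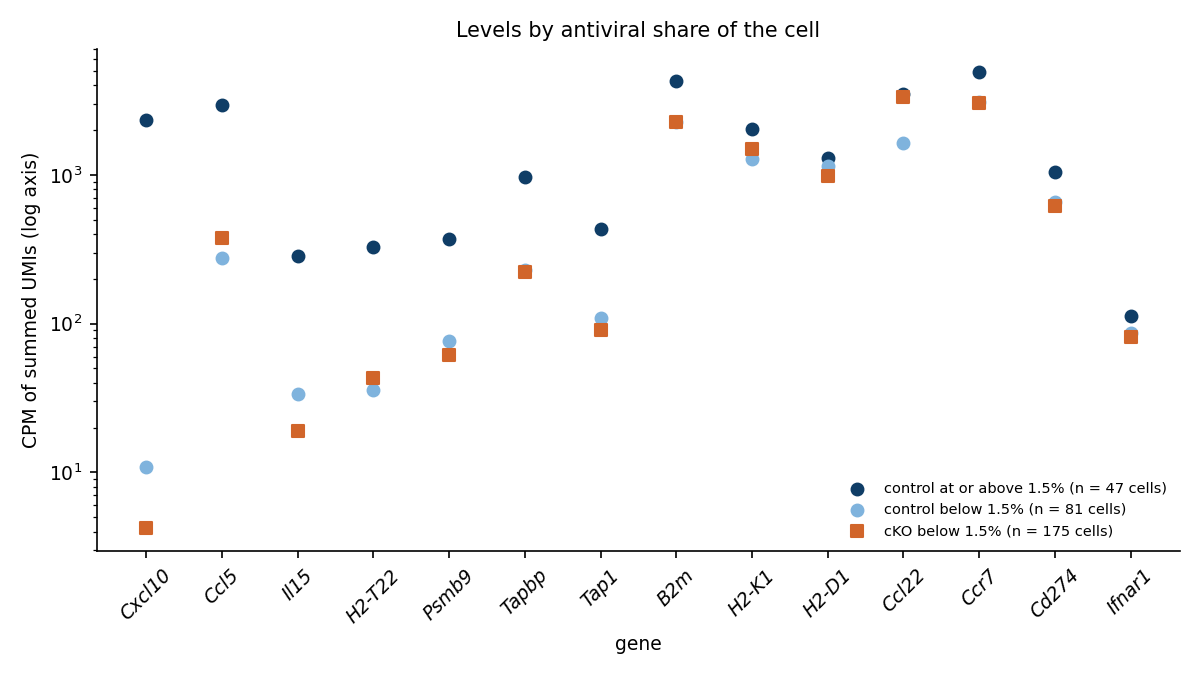
CPM of summed UMIs (log axis) of 14 genes in control dendritic cells at or above an antiviral share of 1.5%, control cells below it and cKO cells below it. For Cxcl10, Ccl5, Il15 and the class I processing genes both sets below the limit lie well under the set above it, while Ccl22 is about as high in cKO cells (3360 CPM) as in control cells above the limit (3486 CPM).

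Genes of MHC class II and of the mature list lay within 2-fold, where 10.8% of all genes passed it in either direction, so counts of 0 in lists of this size are near the background. H2-Aa had 5000 UMIs (3546 CPM) in the library labelled control, against 6129 (3164 CPM) in that labelled cKO, H2-Ab1 had 3686 and 4099, and Cd74, the invariant chain, 17236 and 19228, all 3 chosen by the gate. Outside the gate none of 10 class II genes passed 2-fold. H2-Eb1, a class II beta chain, had a log2 ratio of -0.51, and Ciita, the class II transactivator, one of 0.55. None of 18 genes of the mature list passed 2-fold, and their median was 0.00. Apol7c, an apolipoprotein L gene, had 274 and 585 UMIs (0.62), and Serpinb6b, a protease inhibitor, 668 and 622 (-0.55). Ccr7 had 5270 UMIs (3737 CPM) and 5962 (3078 CPM), a log2 ratio of -0.28. Without the mixed cells 1 of the 18 was higher, Apol7c at 1.09, with 246 of its 474 UMIs in 1 cell.

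Of 15 costimulation genes 2 were higher, beside 7.28% of all genes, and none lower. Of 16 tested without the mixed cells 1 was higher. Icosl, the ligand of the T cell receptor Icos, had 20 UMIs in 16 cells of the library labelled control, against 82 in 41 cells of that labelled cKO (1.30, 1.53 without the mixed cells and 0.87 with a pseudocount of 20 CPM). Cd24a had 208 and 616 UMIs (1.08, and 0.74 without the mixed cells). Cd86, a ligand of Cd28, had 412 and 417 UMIs (-0.43), and Cd274, the inhibitory ligand PD-L1, 1120 and 1197 (-0.36). Of 19 transcription factors 1 passed 2-fold, Klf4 with 254 and 1022 UMIs (1.52), which was at 0.20 without the mixed cells. Rel, an NF-kB subunit, had 2516 and 3196 UMIs (-0.11), and Id2, a factor that conventional dendritic cells need, 1701 and 3101 (0.41). None of 15 NF-kB response genes passed 2-fold.

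**Figure D5:**
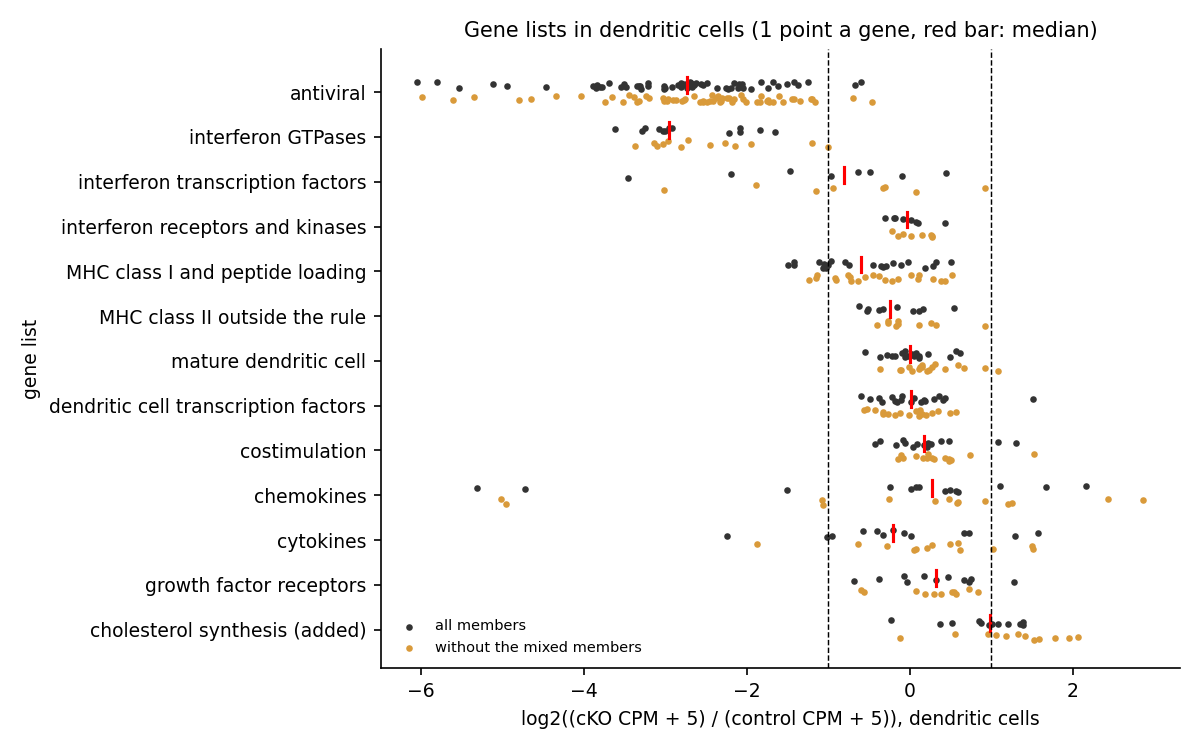
Log2 ratio between the libraries of each tested gene in 13 lists, over all dendritic cells (dark, with the median as a red bar) and without the mixed cells (orange), with dashed lines at 2-fold. The antiviral and GTPase lists have medians of -2.73 and -2.95, whereas interferon receptors and kinases (-0.03) and the mature dendritic cell list (0.00) are centred near 0.

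Of 6 conventional type 1 genes tested 1 was lower, Ifi205, and 1 higher, Cd24a, beside 10.8% of all genes past 2-fold either way. Without the mixed cells 1 of 6 was lower and none higher. Of 10 type 2 genes 1 was lower, Ms4a4c (612 and 135 UMIs, -2.56, and -0.96 within the 3 clusters). Ifi205 and Ms4a4c are also on the antiviral list. Of 11 general dendritic cell genes outside the gate, Jaml (117 and 29 UMIs, -2.14), a junctional adhesion molecule-like protein, and Kmo (45 and 23, -1.13), an enzyme of tryptophan breakdown, were lower, though within the 3 clusters they were at -0.60 and -0.32. Cst3, cystatin C, had 8949 and 8016 UMIs (-0.62). Of 9 monocyte genes 3 were lower and 1 higher, with a median of -0.04. Without the mixed cells 4 of 9 were lower and 2 higher, with a median of 0.28. Over all members the higher gene was Fn1, fibronectin, with 16 and 111 UMIs (1.93). After thinning Fn1 was at -0.28, with a UMI in 1 cell of each library. Among the lower genes, Fcgr1, the high-affinity IgG receptor, had 98 and 16 UMIs (-2.49), and Ms4a6c had 171 and 46 (-2.13), but within the 3 clusters they were at -0.37 and -0.58. Fcgr1 is also counted among the antiviral genes.

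The 152 genes that were higher without the mixed cells were of different kinds, some spread over many cells and some carried by 1 cell. Cyp51, a sterol demethylase, had 16 and 95 UMIs in 7.08% and 25.5% of cells (2.07), with at most 8 in 1 cell. Msmo1, a sterol oxidase, had 30 and 113 UMIs in 21.2% and 36.9% of cells (1.59). Map4k5, a kinase gene, had 3 and 32 UMIs (1.99), Nup155, a nuclear pore gene, 5 and 35 (1.80), and Tssc4 5 and 45 (2.11), each in at least 14.8% of cells labelled cKO. Klri2, a lectin-like receptor gene, had 20 UMIs in 16 cells of the library labelled control, against 115 in 54 cells of that labelled cKO, a log2 ratio of 2.09. It is on the list of NK and innate lymphoid genes, of which Nkg7 had 0 UMIs and 17 UMIs over all members and Ncr1, which defines NK cells, 0 and 2. Il7r, the interleukin 7 receptor, is on the same list and had 1627 and 1742 UMIs over all members, in 93.8% and 88.3% of cells. Cyp1b1, a target of the aryl hydrocarbon receptor, had 27 and 132 UMIs (1.93), with 53 of the 132 in 1 cell. Cx3cr1, the fractalkine receptor, had 40 UMIs in the library labelled cKO, all in 1 cell. Ccl3, an inflammatory chemokine, had 5 and 58 UMIs without the mixed cells, 39 of them in 1 cell. Values that rest on 1 cell were not read as differences between the libraries.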

How the data were processed

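UMI counts per gene and barcode, unfiltered, were deposited by the authors, and per the file headers Cell Ranger version 4 wrote them. The submitters' processing notes name Cell Ranger 6.1.1 and the genome build mm10. Values were used as deposited counts, with no correction for free RNA and with no doublet caller run. UMIs of the dendritic cells of each library were summed and scaled to CPM. Genes with at least 20 CPM in either library were compared with a pseudocount of 5 CPM, and 2-fold was the limit. With 1 library of 3 pooled mice a group there is no test, and intervals (exact Poisson, Clopper-Pearson and conditional for ratios, 95%) cover counting error only, not variation between mice. Interval code was tested on simulated data. Other gates (macrophage, T or NK, fibroblast, epithelium) used marker UMIs. Clusters came from scanpy 1.11.5 and leidenalg 0.10.2 (2000 variable genes, of which 1921 were left after the exclusions, 20 principal components, 15 neighbours, resolution 0.8), with Python 3.11.15 and scipy 1.17.1.

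The members, gene lists and rules were chosen with earlier results of these data known. Genes named were Prickle1, the genes of the gate, the 12 highest and 12 lowest ratios, up to 4 genes of each list with the largest ratios and up to 2 with the highest levels, the 6 leading genes of each cluster and the 6 most like Rsad2. Further genes, among them Ifnb1, Ifne, Ifnl2, Ifnl3, Fscn1, Itgax, Siglech, Cyp51, Msmo1, Map4k5, Nup155 and Tssc4, were named after their values were seen. A few named genes are not reported here. The limits for mixed cells, the antiviral limit of 1.5% and the cholesterol list were also set after seeing the data. Promoters came from RefSeq (GRCm38.p6). The alternatives varied the gate, scaling, filters, pseudocount, depth, clustering and members, 19 in all.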

Additional observations from a re-analysis of the deposited data

Results flagged for a closer look

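Among the named genes, 3 moved one way in the dendritic cells and the other way in the macrophage-gated cells of the same libraries, a difference that could not be tested with 1 library a group. Gzma, a granule protease of NK and T cells, had a log2 ratio of 2.47 in dendritic cells and -4.02 in macrophage-gated cells. All of its 44 UMIs in dendritic cells were in 2 mixed cells of the library labelled cKO, 40 of them in 1 cell. Cyp1b1 had a log2 ratio of 1.01 in dendritic cells, from 47 and 140 UMIs, and -1.72 in macrophage-gated cells, from 60 and 7 UMIs. Of the 140 UMIs 53 were in 1 cell, and the dendritic cell ratio was 0.79 with median-of-ratios scaling. Timp1, an inhibitor of matrix proteases, had a log2 ratio of -2.21 in dendritic cells, from 113 and 26 UMIs, and 1.18 in macrophage-gated cells, from 45 and 66 UMIs. Of the 113 UMIs 40 were in 1 cell, and as the mean within the 3 clusters Timp1 was at -0.55.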

How the results depend on the processing

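No paired analysis was possible because each group is 1 library. The lower antiviral genes numbered 44 to 61 over the alternatives that recompute them, against 60. Their median was -2.14 with a pseudocount of 20 CPM, -1.34 within clusters and -2.43 without mixed cells. Genes higher, 429 as reported, numbered 695 at 2 or more UMIs of the dendritic cell genes, 192 without the 5% of cells with most UMIs, 163 with a pseudocount of 20 CPM, 193 at 50 CPM, 707 without a filter, 252 with median-of-ratios scaling, 1134 after thinning, 245 as a mean over cells, 223 within clusters and 152 without mixed cells. Genes lower, 208 as reported, numbered 613 after thinning and 137 within clusters. With at least 2000 UMIs a cell the dendritic shares were 4.55% and 6.09%, and without mixed cells the share in the library labelled cKO was 4.16%. Its median antiviral share was 0.100% after thinning. At resolution 0.4 the Xcr1-led cluster held 14.8% and 12.8%. Within clusters Col4a1 (-0.03), Cemip2 (-0.53), Akap12 (-0.32) and Tgfbr2 (-0.68) changed sign. Without mixed cells Cemip2 (-0.09), Hes1 (-0.21), Ccl21a (-0.02), Cyp1a1 (-0.32) and Timp2 (-0.06) did so, and after thinning Csf1 (-2.04) and Fn1 (-0.28). Of 70 named genes past 2-fold, these 10 changed sign. Many others kept their sign but fell inside 2-fold in at least 1 alternative, so their calls depend on the setting. Within clusters these included Irf7 (-0.88), Socs1 (-0.65), Timp1 (-0.55) and Ms4a4c (-0.96). Without mixed cells they included Tap1 (-0.75), Il1b (-0.63) and Klf4 (0.20). The causes were not tested. Thinning leaves 1000 UMIs a cell, so low genes rest on few UMIs there.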

Other observations

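A list of cholesterol synthesis genes was added after genes on it, among them Cyp51, Sqle, Hmgcs1 and Msmo1, had been seen to be high, so its counts describe these libraries and support nothing. Of 12 tested 6 were at least 2-fold higher in dendritic cells of the library labelled cKO and none was lower, with a median log2 ratio of 0.99. Without the mixed cells 10 of 14 were higher, with a median of 1.32. Hmgcs1, which makes the precursor of mevalonate, had 94 UMIs (66.7 CPM) in 40 cells of the library labelled control and 354 (183 CPM) in 82 cells of that labelled cKO. Sqle, the squalene epoxidase, had 15 and 68 UMIs, Msmo1, a sterol oxidase, 43 and 149, and Idi1, an isomerase of the mevalonate pathway, 216 and 609. Pmvk, a kinase of the mevalonate pathway, was at -0.23. In fibroblast-gated cells 7 of 14 genes of the list were higher (median 1.08), in epithelium-gated cells 2 of 15 (0.52), in T or NK-gated cells 1 of 8 (0.46) and in macrophage-gated cells 0 of 8 (0.26). The difference between gates was not tested.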
